A study of Mus musculus with 2 samples.

Results

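The microRNA genes that lie inside the 4 Hox gene clusters of the mouse were described in the adrenal gland. They are Mir10a, Mir10b, Mir196a-1, Mir196a-2, Mir196b and Mir615, 6 of the 2202 microRNA genes in the deposited counts, and were taken by their GENCODE M21 symbols through the Ensembl identifiers of the files. The libraries came from 2 male mice of B6CASTF1/J, the F1 hybrid of C57BL/6J and CAST/EiJ, aged 36 days, with 1 library of small RNA (under 30 bases, per the labels) from each. No allele or treatment is named, the gland is not divided into cortex and medulla, and there is 1 group, so no comparison between conditions exists. The labels number the animals separately but list a single donor record for both.

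Hox genes encode homeodomain transcription factors that set position along the body axis, and their order on the chromosome follows the order of the body regions in which they act. MicroRNAs are cut from hairpin transcripts, and pair with messenger RNAs mainly through the seed, bases 2 to 8 of the mature strand. miR-10 and miR-196 genes sit at the same relative places in several Hox clusters and are known to be expressed regionally, as their Hox neighbours are. miR-196 is known for directing cleavage of Hoxb8 messenger RNA, miR-10 genes lie beside the Hox4 genes, and miR-615 lies within Hoxc5.

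The mature sequences show which members share a seed and which members have the same mature strand. They are from RefSeq (GRCm38.p6, the assembly of mm10), which held mature sequences for all 6 members, and are written 5′ to 3′ with the seed in capitals.
miR-10a-5p: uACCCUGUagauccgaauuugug
miR-10b-5p: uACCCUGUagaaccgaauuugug
miR-196a-5p: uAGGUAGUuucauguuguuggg
miR-196b-5p: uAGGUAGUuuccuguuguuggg
miR-615-3p: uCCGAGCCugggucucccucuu

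The members fell into 3 seed groups. miR-10a-5p and miR-10b-5p shared the seed ACCCUGU and differed by U12A, counted from the 5′ end with the base of miR-10a-5p first. miR-196a-5p and miR-196b-5p shared AGGUAGU and differed by A12C, so in both pairs the single difference lay at base 12, outside the seed. No other mature microRNA among the 1679 names in the table had the seed of miR-10 or of miR-196, and none shared the seed of miR-615-3p. The opposite strands of the hairpins are less alike, and miR-10a-3p and miR-10b-3p differed at 3 of 22 bases (A3G, U9A and A10U).

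Mir196a-1 and Mir196a-2 both encode miR-196a-5p. The longest stretch their hairpins share was 22 bases, which is the mature sequence itself. A read made only of those bases has 2 places of origin, and the files list reads that map to several places apart from the genes. The levels of Mir196a-1 and Mir196a-2 are therefore uncertain and may be too low. The hairpins of Mir10a and Mir10b shared at most 15 bases in a row, and those of Mir196a-2 and Mir196b at most 12, so full-length reads of these genes differ. Hairpins were compared for 5 of the 6 members, without Mir615, and copies of the mature strands elsewhere in the genome were not looked for. How reads with a mismatch were placed is not given in the sources used here. The counts belong to hairpin genes and do not separate their arms.

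The 6 hairpins lie in all 4 clusters, each on the strand of its Hox neighbours (mm10, GENCODE M21). Mir10a (ENSMUSG00000065519.1, chr11:96317165-96317274) lies in the Hoxb cluster between Hoxb5 and Hoxb4, 992 bases before the start of Hoxb4 and in no annotated host gene. Mir10b (ENSMUSG00000065500.3, chr2:74726070-74726137) lies in introns of Hoxd4 and of the longer Hoxd3-203 transcript. Mir615 (ENSMUSG00000076010.1, chr15:103014910-103015001) lies in an intron of Hoxc5, between Hoxc6 and Hoxc4.

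The miR-196 genes all lie toward the Hox9 and Hox10 end. Mir196a-1 (ENSMUSG00000065546.1, chr11:96265164-96265265) lies 6191 bases before Hoxb9. Mir196a-2 (ENSMUSG00000065488.2, chr15:102973350-102973434) lies between Hoxc10 and Hoxc9, in an intron of a long noncoding transcript of Hoxc5. Mir196b (ENSMUSG00000065443.1, chr6:52230081-52230165) lies 1031 bases from Hoxa10, overlapping exons of the noncoding Hoxa9-204 and Hoxa9-205 transcripts and an intron of Hoxa9-203. The clusters hold 7 annotated microRNA genes in all. The one that is no member, Gm44463 in the Hoxd cluster, had 0 counts in both libraries, which allows a level of up to 0.667 and 1.44 CPM in replicates 1 and 2 (3 counts each).

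**Figure D1:**
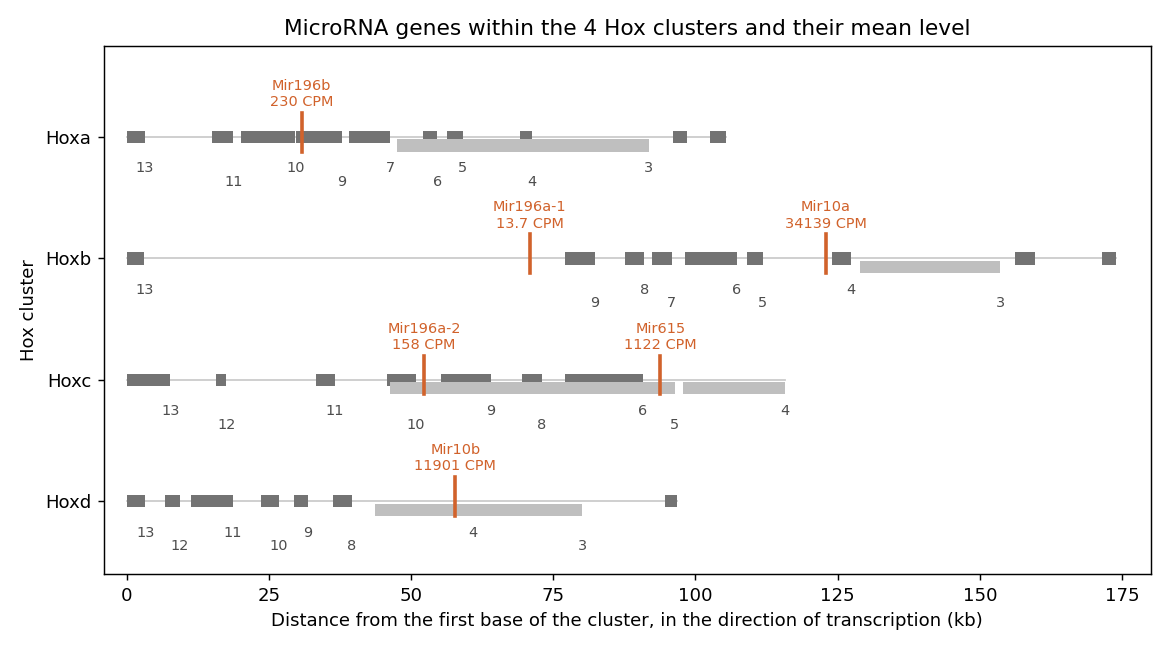
Map of the 4 Hox clusters, with distance in kb from the first base of each cluster in the direction of transcription on the horizontal axis and 1 row per cluster. Dark bars are Hox genes, pale bars are Hox gene models over 15 kb, numbers stand at the 3′ end of Hox genes from Hox3 up, and orange marks are the microRNA genes with their mean CPM over 2 libraries. Mir10a at 34139 CPM and Mir10b at 11901 CPM stand beside Hox4 genes, and the miR-196 genes, at 13.7 to 230 CPM, stand beside Hox9 and Hox10 genes.

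Levels are sense-strand counts scaled to a total of 1000000 over all microRNA genes (CPM). Replicate 1 had 4494857 such counts and replicate 2 had 2078824, which were 36.6% and 20.1% of the reads listed. Reads listed as unmapped were 26.4% and 51.9%, and reads that map to several places 29.8% and 21.5%. All 6 members had at least 10 counts in both libraries, as did 333 of the 2202 genes. Exact Clopper-Pearson 95% intervals were taken within each library and cover counting error only, with every read taken as independent. Copies made by PCR cannot be recognised, so the intervals may be too narrow even for that. Mature members are 22 or 23 bases long, so CPM was not divided by length. How far library preparation favours one mature sequence over another was not tested, so the order below is an order of read levels.

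Mir10a, known from kidney and gut as well as from the trunk of the embryo, was the highest member and ranked 8 among all genes by mean CPM. It had 212093 counts in replicate 1 and 43847 in replicate 2, or 47186 CPM (95% interval 46990 to 47382) and 21092 CPM (20897 to 21288). Its mean was 34139 ± 18451 CPM (SD, n = 2). It was the highest member in both libraries, with the higher level in replicate 1. Leaving out replicate 1 lowers its mean by over 1.5 times, to 21092 CPM.

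Mir10b, whose mature strand has the same seed, stood at 11612 CPM (11513 to 11712) and 12189 CPM (12040 to 12339) in replicates 1 and 2. The mean was 11901 ± 408 CPM (SD, n = 2), rank 19 among all genes. The spread between the libraries was 3.43% of the mean for Mir10b and 54.0% for Mir10a. The gene from the Hoxd cluster was thus at almost 1 level in both libraries while the gene from the Hoxb cluster was not. In bulk tissue, fewer cells of a type and less RNA per cell cannot be told apart.

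Mir615, the single member of its seed group, stood at 1173 CPM (1141 to 1205) and 1071 CPM (1027 to 1116) in the 2 libraries. Its mean of 1122 ± 72.0 CPM (SD, n = 2) placed it at rank 81. It stood below Mir10b and was close in both libraries.

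The miR-196 genes were the lowest. Mir196b had 253 CPM (238 to 268) and 207 CPM (188 to 228) in replicates 1 and 2, a mean of 230 ± 32.1 CPM (SD, n = 2) at rank 154. Mir196a-2 had 178 CPM (166 to 191) and 137 CPM (122 to 154), a mean of 158 ± 29.1 CPM at rank 177. Mir196a-1 rested on 65 and 27 counts, with 14.5 CPM (11.2 to 18.4) and 13.0 CPM (8.56 to 18.9), a mean of 13.7 ± 1.04 CPM at rank 288. The last of these is the least precise level, and both miR-196a levels leave out reads shared between the loci.

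The order was Mir10a, Mir10b, Mir615, Mir196b, Mir196a-2 and Mir196a-1 in both libraries. No neighbours in it overlapped over the 2 libraries, and the closest pair was Mir196b, with a lowest level of 207 CPM, and Mir196a-2, with a highest of 178 CPM. The smallest p of an exact two-sided permutation test with 2 unpaired values on each side is 0.33. Members share the libraries, so their values are paired, and pairing allows fewer permutations and no smaller p. No difference between members can therefore pass such a test.

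**Figure D2:**
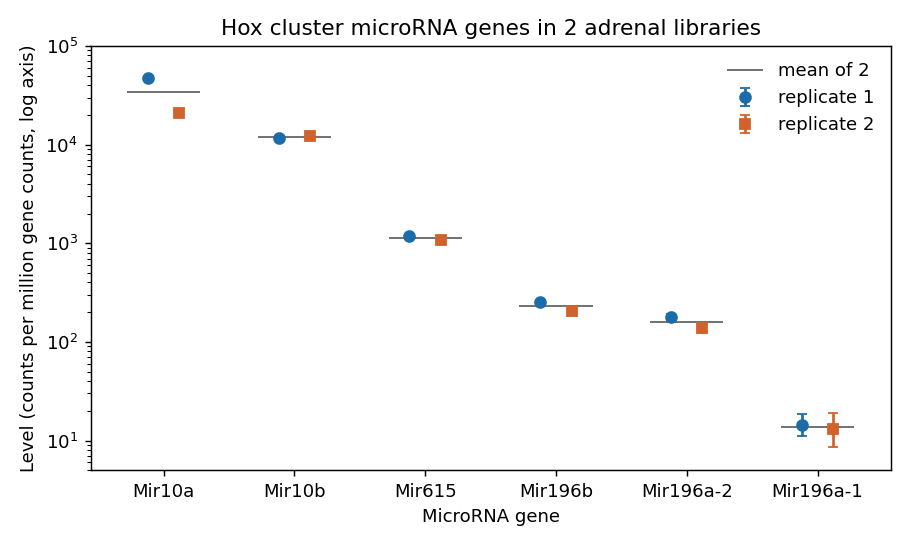
Level of each member in CPM on a log axis, with blue circles for replicate 1, orange squares for replicate 2, exact 95% counting intervals as bars (smaller than the symbols for most genes) and a grey line at the mean of 2. Mir10a stands apart between the libraries, at 47186 and 21092 CPM, and the symbols of Mir10b, at 11612 and 12189 CPM, lie close together.

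The members held 6.04% (95% interval 6.02 to 6.06) and 3.47% (3.45 to 3.50) of all microRNA gene counts in replicates 1 and 2. The mean was 4.76% ± 1.82 (SD, n = 2). Nearly all of it was from the miR-10 seed, with 5.88% and 3.33%. The 3 miR-196 genes held 0.0445% and 0.0357%. Mir10a alone made up 78.1% of the members' counts in replicate 1 and 60.8% in replicate 2. Without Mir10a the other 5 members held 1.32% and 1.36% of the gene counts, so nearly the whole difference in share lay in Mir10a.

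**Figure D3:**
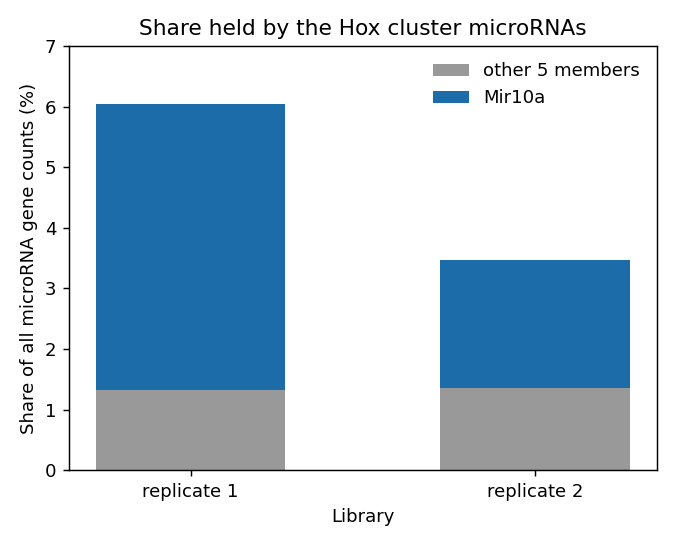
Share of all microRNA gene counts, in percent, held by Mir10a (blue) and by the other 5 members (grey) in each library. The grey parts are 1.32% and 1.36% high, while the whole bars reach 6.04% and 3.47%.

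The ratio of Mir10a to Mir10b within a library does not depend on how the libraries are scaled. It was 4.06 in replicate 1 (95% interval 4.02 to 4.10) and 1.73 in replicate 2 (1.70 to 1.76). Mir10a was the higher gene in both, and the ratio was 2.35 times larger in replicate 1. The two-sided Fisher exact test of the 4 counts gave p = 1e-300, the smallest value kept, and it compares these 2 libraries with counting noise as the only error. Over the libraries the ratio was 2.90 ± 1.65 (SD, n = 2), and without replicate 1 it is 1.73.

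The other within-library ratios were chosen after the levels were seen and were not tested. Those that hold Mir10a also differed between the libraries, with Mir10a at 40.2 and 19.7 times Mir615 in replicates 1 and 2, and at 187 and 102 times Mir196b. Ratios between neighbours in the order below Mir10a were closer. Mir10b stood 9.90 times above Mir615 in replicate 1 and 11.4 times in replicate 2. Mir615 stood 4.64 and 5.16 times above Mir196b. Mir196b stood 1.42 (1.29 to 1.55) and 1.51 (1.30 to 1.76) times above Mir196a-2, with intervals that overlap. The copies that encode 1 mature strand were far apart in counts in both libraries, with Mir196a-2 at 12.3 (9.56 to 16.1) and 10.6 (7.10 to 16.3) times Mir196a-1. These counts leave out reads that map to both loci, so the ratio need not be that of what the loci produce. In these 4 neighbouring pairs without Mir10a the 2 libraries differed by at most 1.17 times.

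The libraries were next compared gene by gene, as replicate 2 over replicate 1 on the log2 scale after TMM scaling in edgeR, which sets the ratio by the bulk of the genes. The test was the exact binomial (two-sided), with Benjamini-Hochberg adjustment over 333 genes. Of those genes 78.1% passed, 38.7% as higher in replicate 1 and 39.3% as higher in replicate 2. Of the 6 members 5 passed, all as higher in replicate 1, and Mir196a-1 did not. A count of 5 in 6 past the test is near the background in either direction. Toward replicate 1 it is above the background, but the members were chosen with earlier results known, and nothing is read from that. Counting noise is the only error in this test.

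Mir10a had the largest ratio among the members, -1.35 (95% interval -1.36 to -1.33), or 2.54-fold more in replicate 1, with a binomial adjusted p of 1e-300, the smallest value kept. It ranked 17 of 333 toward replicate 1. Mir196a-2 followed at -0.56 (-0.76 to -0.37), then Mir196b at -0.47 (-0.63 to -0.31) and Mir615 at -0.32 (-0.39 to -0.24). The adjusted p from the binomial test was 1.33e-08 for Mir196a-2, 7.88e-09 for Mir196b and 3.43e-18 for Mir615. Mir196a-1, at -0.34 (-1.04 to 0.33), was not past the test (adjusted exact binomial p = 0.360).

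Mir10b had the smallest ratio, -0.12 (-0.14 to -0.09), with an adjusted exact binomial p of 2.68e-25. With library size alone it turned to 0.070, higher in replicate 2, while the median of all genes stood at 0.19. The median ratio of the members was -0.41 and that of all 333 genes 0.01, and the median absolute ratios were 0.41 and 0.62. Only Mir10a of the 6 members differed by over 2-fold, as did 91 of the 333 genes.

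The spread between these libraries over all genes corresponds to a biological coefficient of variation of 52.2%. With that dispersion, estimated from the same 2 libraries, the edgeR exact test called 1.80% of the 333 genes and none of the members at an adjusted p under 0.05. It called 17 genes and none of the members at an unadjusted p under 0.05. For Mir10a the unadjusted exact p was 0.229 and the adjusted p 0.987. The difference in Mir10a was thus far beyond counting noise but did not pass the test against the general spread between the libraries.

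**Figure D4:**
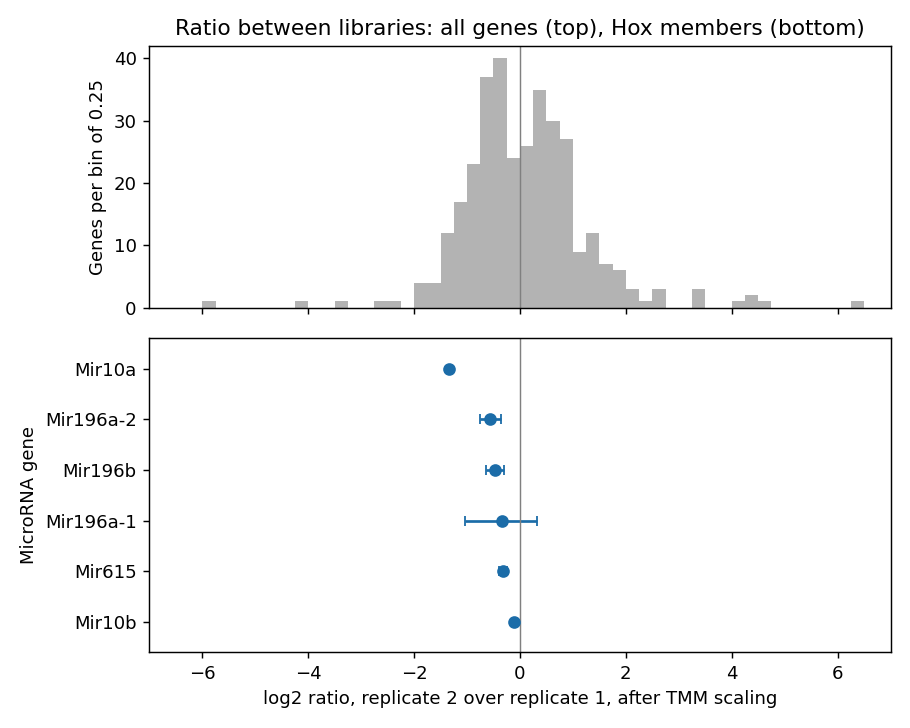
Histogram of the log2 ratio of replicate 2 over replicate 1 after TMM scaling for the 333 genes tested (top) and the ratio of each member with its 95% counting interval (bottom). Mir10a stands at -1.35 and the other members between -0.56 and -0.12, on the side of replicate 1.

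Markers of other cells and tissues moved between the libraries as well, and their part in the level of Mir10a was not tested. The kidney and gut list held Mir10a and Mir196b, which were left out of its sum as members. Both were higher in replicate 1, Mir196b at 253 and 207 CPM in replicates 1 and 2. The other 5 genes of that list, all detected in at least 1 library, summed to 136 and 322 CPM. The sum moved opposite to Mir10a. Its highest gene in both libraries was Mir204, a gene of kidney epithelium, at 57.0 and 207 CPM. By the binomial test 2 of the 3 genes tested were higher in replicate 2, against 39.3% of all 333 genes, and 1 was not past the test. The others, too low to test, were higher in replicate 1, at 4.89 and 2.41 CPM and at 1.33 and 0 CPM. The list thus did not move as one. The 5 genes of the epithelial miR-200 family summed to 64.7 and 3576 CPM, and the 3 acinar genes of the pancreas to 0 and 326 CPM, led by Mir217 with 0 and 255 CPM. The 3 erythroid genes, led by Mir451a, summed to 15841 and 1091 CPM. By the binomial test 2 of these 3 were higher in replicate 1, against 38.7% of all 333 genes, and 1 was not past it.

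The sums of the other marker lists differed less, but each is dominated by its highest genes, and other genes of a list could differ more or point the other way. Mir7b, Mir145a and Mir193b are named here after their values were seen. The 4 neuroendocrine genes, which mark cells such as those of the adrenal medulla, summed to 48802 and 54157 CPM, led by Mir375 with 44147 and 51780 CPM. By the binomial test the other 3 were higher in replicate 1, among them Mir7b at 4326 and 2129 CPM, and the median log2 ratio of the list was -0.54. Of all 333 genes 38.7% were higher in replicate 1 by that test. The 3 smooth muscle and pericyte genes summed to 46611 and 30221 CPM, led by Mir143, which was higher in replicate 1. Mir145a of the same list was higher in replicate 2, at 1564 and 3998 CPM.

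The 4 fat genes summed to 54203 and 97438 CPM, led by Mir378a. Against 39.3% of all 333 genes, the 3 fat genes tested were all higher in replicate 2. Among these Mir193b, at 256 and 3032 CPM, had a log2 ratio of 3.38, larger in size than that of Mir10a. The 5 leukocyte genes summed to 3219 and 3899 CPM, led by Mir146. The binomial test placed 3 of the 5 as higher in replicate 1, against 38.7% of all 333 genes. The other 2 were higher in replicate 2, and the median log2 ratio was -0.52. The 2 endothelial genes summed to 74842 and 64797 CPM, led by Mir126a. The liver gene Mir122 had 1383 and 2842 CPM. None of the lists marks steroid-producing cells, so the cortex was not checked.

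The genes of the wider miR-10 superfamily that lie outside the Hox clusters gave a comparison by descent. Their mature strands resemble miR-10 with another seed, as in miR-99a-5p and miR-100-5p, whose seeds are in capitals.
miR-99a-5p: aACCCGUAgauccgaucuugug
miR-100-5p: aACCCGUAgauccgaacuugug

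These 6 genes together had 35328 and 29157 CPM in replicates 1 and 2, against 60416 and 34710 CPM for the 6 Hox cluster genes. Of all 333 genes, 78.1% passed the binomial test, 38.7% as higher in replicate 1 and 39.3% as higher in replicate 2. By that test 4 of these 6 were higher in replicate 1, 1 was higher in replicate 2 and 1 was not past it. Nothing is read from this count. Their median log2 ratio was -0.58. Higher in replicate 1 were Mir99a at 18493 and 12925 CPM, Mir99b at 8023 and 5734 CPM, Mir100 at 3649 and 2006 CPM and Mir125b-1 at 254 and 205 CPM. Mir125a was higher in replicate 2, at 4733 and 8070 CPM, and Mir125b-2 had 177 and 216 CPM. Mir10a had a larger ratio toward replicate 1 than any of these, Mir100 (-1.05) being the nearest, and a difference between the sets was not tested.

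Genes of like pattern were named as the 3 nearest to each member in the plane of log2 CPM in both libraries. With only 2 libraries this measures level more than pattern. Nearest to Mir10a were Mir143 of smooth muscle at a distance of 0.32, then Mir23a at 0.36 and Mir23b at 0.58. Mir23a had 40207 and 17457 CPM and Mir23b 35488 and 15877 CPM. Their likeness to Mir10a in the gap between the libraries largely follows from choosing them by level in both. Nearest to Mir10b were Mir652 at 0.28, Mir30d at 0.43 and Mirlet7e at 0.56.

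Among the lower members, Mir196b lay at 0.01 from Mir125b-1, followed by Mir24-2 at 0.15 and Mir1843a at 0.15. Mir196a-2 lay at 0.07 from Mir370, 0.09 from Mir148b and 0.28 from Mir186. Mir615 lay nearest to Mir1839 at 0.08, Mir181c at 0.22 and Mir185 at 0.22, and Mir196a-1 to Mir1983 at 0.14, Mir412 at 0.32 and Mir325 at 0.34.

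The opposite strand of the members was almost free of reads. The antisense column held 1 count for Mir10a in replicate 1, and 0 for Mir10a in replicate 2 and for the other 5 members in both libraries. The strand-blind column equalled the sense column for every member except Mir10a in replicate 1, at 212094 against 212093 counts. No member thus lost reads in the strand-blind column to a gene on the other strand.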

How the data were processed

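The authors deposited raw read counts for each library, in a strand-blind column and in 1 column per strand. Per the text file deposited with each library, the assembly was mm10 and the annotation GENCODE M21. Neither aligner nor counter is named (not given in the sources used here). Column 3 was taken as sense. Rows for reads that are unmapped, map to several places, lie outside genes or are ambiguous stayed out of library sizes.

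CPM scale sense counts to 1000000 over all genes. The exact binomial test used TMM effective library sizes and a minimum of 10 counts in both libraries, with adjusted p under 0.05 called. The edgeR exact test used the common dispersion of both libraries as 1 group. All p-values compare these 2 libraries only. Those of the binomial and Fisher tests take counting noise as the only error, and the edgeR exact test alone uses the spread between the libraries. Alternatives were DESeq2 size factors, library size alone, minima of 50 or none, the strand-blind column, totals without the highest gene, and each library left out.

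Named genes are the members, the superfamily list, the highest gene of each marker list and the 3 genes nearest each member. Mir7b, Mir145a and Mir193b were named after their values were seen. Some Hox genes are not reported here by name. Members and lists were chosen with earlier results of these data known. Simulated counts with counting noise only, tested on 331 genes, gave 87 of 87 calls for 4-fold changes, 66 of 85 for 1.5-fold and 4 of 159 unchanged. Library sizes in the simulation came from its unaltered genes rather than from TMM. The simulation thus tests neither TMM scaling nor the spread between the real libraries, and nothing about the real calls is read from it. Software was R 4.3.3, edgeR 4.0.16, DESeq2 1.42.0, Python 3.11.15, SciPy 1.17.1 and matplotlib 3.10.9.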

Additional observations from a re-analysis of the deposited data

How the results depend on the processing

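Of 35 member ratios under alternatives, 34 pointed to replicate 1. The 35 include those of the edgeR exact test, which equal the main ratios by construction and so do not check the direction. The other settings kept the member counts, save 1 read of Mir10a in the strand-blind column, and shifted all member ratios together. The 35 are thus not independent checks of direction. The exception was Mir10b with library size alone (0.070). With the edgeR exact test in place of the binomial test, which keeps the ratios and allows for the general spread, Mir10a (-1.35), Mir10b (-0.12), Mir196a-2 (-0.56), Mir196b (-0.47) and Mir615 (-0.32) were no longer past the threshold, and the genes called fell to 2 higher in replicate 1 and 4 in replicate 2. Size factors from DESeq2, a minimum of 50 counts (which leaves out Mir196a-1), no minimum and the strand-blind column changed no call of a member. No minimum and library size alone moved the median of all genes to -0.16 and 0.19. Levels depend on the total they are divided by. With the smaller strand-blind total the mean CPM was 14612 for Mir10b, 1376 for Mir615, 282 for Mir196b, 193 for Mir196a-2 and 16.8 for Mir196a-1. Without the counts of Mirlet7b in the total it was 13787, 1294 and 265 CPM for the first 3 of these and 15.8 CPM for Mir196a-1. For Mir10a the strand-blind total gave a mean of 41740 CPM, and the total without Mirlet7b gave 38647 CPM. Mir10a and the members' share moved by less than 1 SD, but the SD of Mir10a is 54.0% of its mean. This therefore does not show that Mir10a is steadier than the others. The ratio of Mir10a to Mir10b does not depend on a total. Leaving out 1 of 2 libraries always moves a mean by less than 1 SD. With 1 library alone the share was 3.47% or 6.04%, the ratio 1.73 or 4.06. Samples could not be paired between conditions because there is 1 group, and members were compared within each library by ratios. Depth limits Mir196a-1, at 65 and 27 counts.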

Other observations

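The seed of miR-196 also occurs, shifted by 1 base, in most let-7 strands. The 11 let-7 and Mir98 genes whose mature strand has it held 24.3% and 32.1% of the gene counts in replicates 1 and 2, with Mirlet7e, whose strand lacks it, left out. The bases AGGUAGU stand at positions 3 to 9 of 9 named mature strands in the RefSeq table, 7 of them let-7 strands, with miR-98-5p and miR-1961. The shared bases are in capitals in both strands, which are shown because they begin so alike.
miR-196b-5p: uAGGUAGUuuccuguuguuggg
let-7b-5p: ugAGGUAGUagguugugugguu

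These 11 genes had 545 times as many counts as the 3 miR-196 genes in replicate 1 and 898 times as many in replicate 2. Reads shared between copies are outside both sums. Whether the strands bind the same messenger RNAs in the gland was not measured.

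Letters that pair with the seeds were looked for in the 3′ UTRs of the Hox genes, taking the longest 3′ UTR of each gene in GENCODE M21, its first 500 bases and the transcript strand only. ACTACCT, which pairs with the seed of miR-196, occurred in 8 of 34 Hox genes with such a window (23.5%) and in 283 of 14292 genes of any kind (1.98%). Among them were Hoxa7, Hoxb7 and Hoxc8. ACAGGGT, which pairs with the seed of miR-10, occurred in 1 Hox gene (2.94%), Hoxa3, against 4.79% of all genes. GGCTCGG, which pairs with that of miR-615-3p, occurred in 0 of 34 against 1.01%.

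Over whole 3′ UTRs the counts were 9 of 39 Hox genes for miR-196 against 6.10% of all genes, 4 of 39 for miR-10 against 12.5%, and 1 of 39 for miR-615-3p against 2.30%. Hox genes descend from common ancestors and are not independent of each other, and a match is a description of letters, not a site in use.

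Hoxb8, the known cleavage target of miR-196, has none of these ACTACCT matches. The best-pairing stretch for miR-196a-5p in its 3′ UTR begins 418 bases after the stop codon and is shown with the bases opposite the seed in capitals.
Hoxb8 site: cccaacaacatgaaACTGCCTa

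All 22 bases pair by these rules with miR-196a-5p, 21 as Watson-Crick pairs and 1 as a G and U wobble at base 5 of the microRNA, within the seed. No messenger RNA was measured here, so the level of Hoxb8 was not analysed.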
